A study of Saccharomyces cerevisiae with 76 samples.

Results

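Abf1 is an essential general regulatory factor of Saccharomyces cerevisiae that binds a defined DNA sequence in many promoters, keeps the DNA around it free of nucleosomes and also takes part in replication origins and silencers. The genes described here are 56 amino acid biosynthesis genes of the histidine, aromatic, branched-chain, lysine, arginine, aspartate family and serine pathways, taken by name from textbook pathway membership. They were searched among 6008 protein-coding ORFs of the nuclear genome, and all 56 were found. A gene was counted as having an Abf1 peak when the summit, which is the position of highest enrichment in a peak, lay inside the ORF (start to stop codon) or within the 1000 bp upstream of the start codon.

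The series followed Abf1 on DNA by ChIP-seq in a strain in which rapamycin removes Abf1 from the nucleus, and the peaks used here are from cells before that removal. The strain was BY4742 (MATalpha) with tor1-1, fpr1del and RPL13A-FKBP12-NAT, which together make it resistant to rapamycin and place the anchor on ribosomes, and with Abf1-FRB-yEGFP-3V5-hphMX4 as its source of Abf1. These cells had 90 min of the solvent DMSO and no rapamycin, and grew in synthetic complete medium, in which amino acids are supplied. The list was called on 3 anti-V5 immunoprecipitations together against 3 inputs, of 76 samples in the series, which also hold later time points up to 90 min and an untagged strain that were not analysed here. Each peak has 1 pooled value, so the spread between replicates is unknown, and no test between groups was possible. Intervals given below are exact 95% Poisson intervals on the fragments at a summit, with the background held fixed. They cover the counting error of those fragments only, and not that of the background. The strain BY4742 lacks HIS3, LEU2 and LYS2 in whole or part, so a missing peak in a deleted part cannot be told apart from missing DNA. How far each deletion reaches was not examined here.

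The enzymes that make amino acids in yeast are under general amino acid control, in which starvation for an amino acid activates the kinase Gcn2, and translation of the activator Gcn4 then rises. Gcn4 binds TGACTCA in the promoters of these genes and induces them across pathways, while factors such as Leu3 and Lys14 act on single pathways. In the absence of starvation many of these genes have a basal level of transcription that does not need Gcn4, and Abf1 has been described as a basal factor at HIS7, ARO3 and TRP3.

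Abf1 recognises a sequence of 13 positions, of which 8 are constrained and form blocks at either end of a variable spacer. The sites below are those at the member summits with the highest fold enrichment and at the genes where a Gcn4 match lies beside the Abf1 site. Each runs from −10 to +10 bp around the midpoint of the consensus (build sacCer3, which is R64), with the constrained positions in capitals. The base at −8, the third from the left, is given with each result. The study's methods state that only sites with G or C there cross-link efficiently to the protein. Sites with A or T there were left out of the study's analyses. The study reports that low signals at such sites did not fall during depletion. Rebinding of cytosolic Abf1 in the ChIP procedure is proposed there as the likely source.

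THR4, chrIII:216488-216508, minus strand: cacgGTCACtactcACGagga
LYS4, chrIV:930757-930777, minus strand: gtttATCACttgatACGtgta
LEU9, chrXV:522757-522777, minus strand: atgaGTCATtcactACGaccg
ARG7, chrXIII:396575-396595, minus strand: agcaATCATtattgACGgtgt
ARG1, chrXV:218820-218840, plus strand: gttaGTCACtactgACGgctc
TRP2, chrV:337766-337786, minus strand: gcaaATCACtgtgtACGttaa
TRP3, chrXI:38319-38339, minus strand: tcatATCACtgacgACGgaaa
TRP3, chrXI:39007-39027, minus strand: ttttGTCACactacACGagaa

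Before depletion, 12 of the 56 members had an Abf1 peak (21.4%), against 1167 of the 6008 genes (19.4%). The share of members was thus close to that of all genes. The members were HIS2, ARO3, ARO8, ARO9, TRP2, TRP3, ILV5, LEU9, LYS4, ARG1, ARG7 and THR4, and TRP3 and ILV5 had 2 summits each. The fold enrichment, which sets the fragments piled up at a summit against the input background, was at least 4 at THR4, LYS4, LEU9 and ARG7. The study used this value as its minimum for strong binding. These 4 members were 7.14% of the 56, against 9.87% of all genes (593 of 6008). The 14 member summits had a median fold enrichment of 3.04 and ranged from 2.23 to 15.2, against a median of 3.52 and a range of 2.00 to 68.2 over all 948 summits. The 826 summits that the rule assigned to any gene had a median of 3.75. Between 350 and 2207 fragments covered a member summit, over a background of 133 to 176 fragments.

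**Figure D1:**
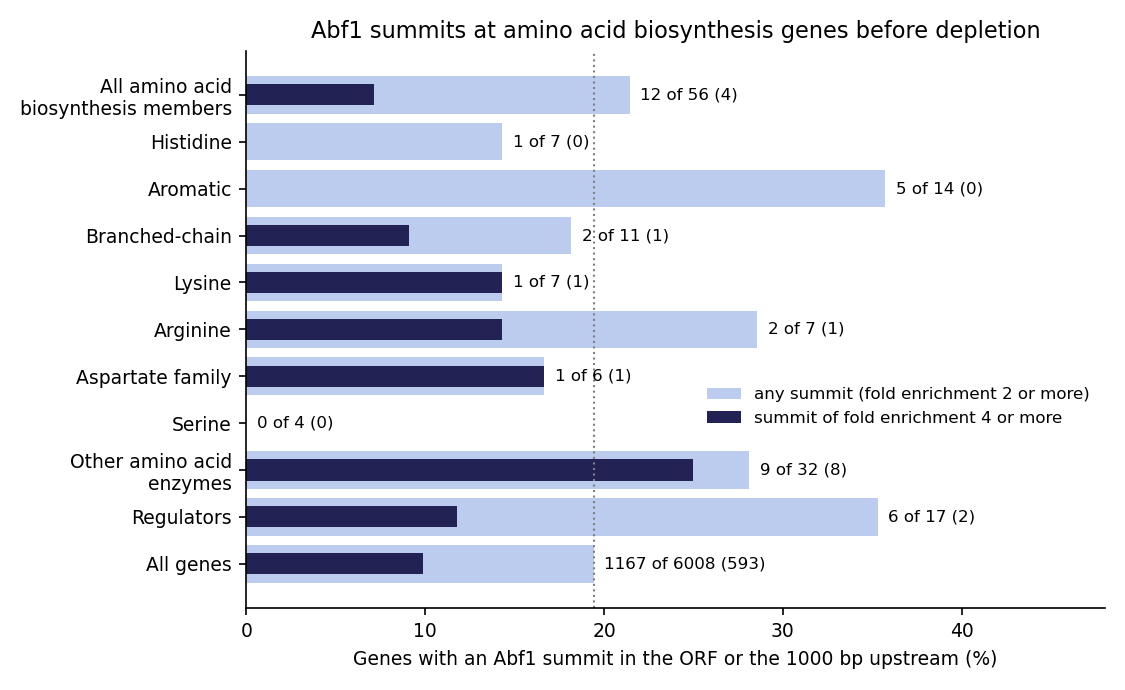
Percent of genes with an Abf1 summit (pale bars) and with a summit of fold enrichment 4 or more (dark bars), for the members, for their pathways, for other amino acid enzymes and regulators, and for all genes at the bottom. Labels give the genes with a summit, the genes in the group and, in brackets, the genes with a summit of fold enrichment 4 or more; the dotted line is the 19.4% of all genes, and 12 of 56 members lie just above it.

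The highest value among the members was at THR4, which encodes threonine synthase, the last enzyme of threonine synthesis. Its summit at 216502 on chromosome III had a fold enrichment of 15.2 (14.5 to 15.8, 2207 fragments) and ranked 181 of 948. It lay 195 bp upstream of the THR4 start codon and 57 bp past the stop codon of RSC6, which is read in the same direction, so that THR4 was the only gene starting beside it. The consensus lay 4 bp from the summit and had C at −8.

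The LYS4 promoter had nearly the same enrichment. LYS4 encodes homoaconitase of the aminoadipate pathway, by which fungi make lysine, and its summit at 930745 on chromosome IV had a fold enrichment of 14.4 (13.8 to 15.1, 2037 fragments). The intervals of THR4 and LYS4 overlap, and their order is not resolved. The LYS4 summit lay almost midway between 2 divergent start codons, 384 bp from LYS4 and 388 bp from RTN1, which encodes a reticulon of the endoplasmic reticulum. The list does not assign such a peak to one gene of the pair. The exact consensus here had T at −8 and lay 22 bp from the summit. The same window also held 3 sites with 1 mismatch, at 13, 44 and 64 bp from the summit, and those at 13 and 64 bp had C at −8.

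LEU9 and ARG7 followed. LEU9 encodes the second isopropylmalate synthase, which starts leucine synthesis, and its summit at 522767 on chromosome XV had a fold enrichment of 9.76 (9.24 to 10.3, 1305 fragments), 260 bp upstream of the start codon. The gene on the other side of this summit was RGS2, read in the same direction. The midpoint of the consensus fell on the summit itself, with G at −8. The paralogous enzyme gene LEU4 had no summit by the rule. ARG7 encodes the mitochondrial ornithine acetyltransferase, which recycles the acetyl group in ornithine synthesis, and its summit at 396608 on chromosome XIII had a fold enrichment of 6.48 (6.07 to 6.92, 920 fragments), 229 bp upstream. It was shared with the divergent gene RIM9, whose start codon lay 469 bp away. The intervals of LYS4, LEU9, ARG7 and ARG1 did not overlap each other, so this part of the order exceeds the counting error of the summit fragments. Error in the background was not included.

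**Figure D2:**
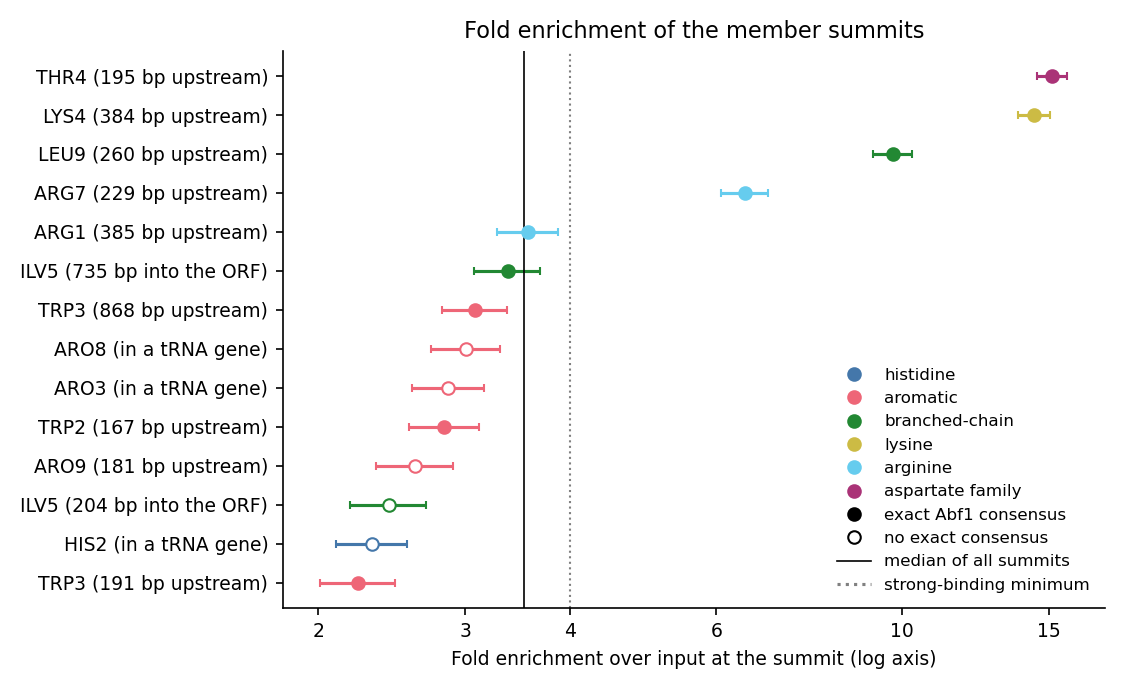
Fold enrichment over input at each of the 14 member summits (log axis), with exact 95% Poisson intervals that cover counting error of the summit fragments only, coloured by pathway. Filled points have the exact Abf1 consensus within 100 bp; the solid line is the median of all summits, 3.52, and 4 points, from 6.48 to 15.2, lie right of the dotted minimum of 4.

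Below ARG7, the other 10 member summits lay between 2.23 and 3.56, and each overlapped the next in its interval. ARG1, which encodes argininosuccinate synthetase, had the highest of them. Its summit at 218826 on chromosome XV had a fold enrichment of 3.56 (3.27 to 3.88, 550 fragments). It lay 385 bp upstream, between the tandem genes GPD2 and ARG1, with T at −8 of its consensus. The other arginine genes of the list, among them ARG3 and ARG4, had no summit.

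In the aromatic pathway 5 of 14 genes had a summit (35.7%), none of fold enrichment 4 or more, and the values ran from 2.23 to 3.08. This was the largest share of the pathways, ahead of arginine (28.6%), but not under every rule. With 500 bp upstream or without summits inside tRNA genes it was 3 of 14 (21.4%), with a minimum fold enrichment of 3 it was 2 of 14 (14.3%) and at a −log10 q-value of at least 100 it was 0, while arginine stayed at 2 of 7. TRP3 and TRP2 encode the subunits of anthranilate synthase, which commits chorismate to tryptophan, and both had the exact consensus. The TRP3 summits lay 191 bp upstream (2.23, 2.01 to 2.47, 368 fragments) and 868 bp upstream (3.08, 2.82 to 3.37, 489 fragments) in 1 interval of 1057 bp. The second of these was nearer to the start codon of the divergent gene UBA1, the ubiquitin-activating enzyme, at 142 bp, and had a snoRNA gene, SNR64, within 200 bp. The sites had A and T at −8. At TRP2 the fold enrichment was 2.83 (2.57 to 3.12, 415 fragments) at 167 bp upstream, with A at −8, between TRP2 and the divergent phosphatase gene PTC2.

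The aminotransferases ARO8 and ARO9, which catalyse the last step to phenylalanine and tyrosine and also their breakdown, had fold enrichments of 3.00 (2.73 to 3.30, 432 fragments) and 2.61 (2.34 to 2.90, 350 fragments). The ARO8 summit, 522 bp upstream, lay inside a tRNA-Lys gene and had no consensus even with 1 mismatch. It shared its intergenic region with the divergent gene KEX1, whose start codon lay 873 bp away. The ARO9 summit lay 181 bp upstream and had a site with 1 mismatch. The divergent gene SPL2 shared this region, with its start codon 428 bp from the summit. ARO3 encodes the phenylalanine-inhibited DAHP synthase, which opens the shikimate pathway. Its summit (2.86, 2.59 to 3.16, 397 fragments) lay 808 bp upstream inside a tRNA-Gln gene, beyond the small gene CPP3, whose start codon was nearer at 306 bp. The region that held it was shared by CPP3 and the divergent gene YDR034C-A. The other DAHP synthase gene, ARO4, had its nearest summit 35914 bp from its start codon.

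HIS2 was the only histidine gene with a summit. It encodes histidinol-phosphate phosphatase, and its summit 232 bp upstream had a fold enrichment of 2.32 (2.10 to 2.55, 410 fragments). This summit lay inside a tRNA-Ala gene, between HIS2 and the tandem gene ULI1, with no consensus. Thus 3 of the 14 member summits, those of HIS2, ARO3 and ARO8, lay inside tRNA genes, against 24.4% of all summits (231 of 948), and all 3 were under a fold enrichment of 4. Among all summits under 4, 40.0% lay inside tRNA genes. The study's methods treat weak signal over tRNA genes and ORFs as a known ChIP artefact, which its minimum for strong binding was meant to remove. The summits of HIS2, ARO3 and ARO8, and those inside the ILV5 ORF described next, fell below that minimum. Whether they reflect binding was not tested. Without the summits inside tRNA genes, 9 members had a peak (16.1%), ILV5 still among them, against 16.1% of all genes.

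ILV5, the acetohydroxyacid reductoisomerase of the isoleucine and valine pathway, was the only member with summits inside its ORF. They lay 735 bp and 204 bp past the start codon in 1 interval of 1670 bp, with fold enrichments of 3.37 (3.07 to 3.69, 466 fragments) and 2.43 (2.18 to 2.70, 351 fragments). An exact consensus with A at −8 lay 76 bp from the first, and a site with 1 mismatch lay 23 bp from the second.

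By pathway, 2 of 11 branched-chain genes had a summit (18.2%), 1 of 7 lysine genes (14.3%), 1 of 7 histidine genes (14.3%), 2 of 7 arginine genes (28.6%), 1 of 6 aspartate family genes (16.7%) and 0 of 4 serine genes. With 4 to 14 genes each, these shares rest on few genes.

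The place of the member summits was compared with that of all summits. Of the 14 member summits, 8 lay between divergent genes, 4 between tandem genes, 2 inside an ORF and 0 between convergent genes. The 8 include the ARO3 summit, whose divergent neighbours YDR034C-A and CPP3 are not members. ARO3 itself has a tandem gene upstream. Of all 948 summits, 37.0% lay between divergent and 39.7% between tandem genes, 15.1% inside an ORF and 6.96% between convergent genes. The sets are unlike, since member summits had to lie in an ORF or upstream of a start codon. Over all genes that rule took 826 of the 948 summits. How much of these differences follows from the rule was not tested. Divergent promoters were less frequent among the members, at 20 of 56 (35.7%), against 52.0% of all genes. Of these 20 members 7 had a summit (35.0%), and 5 of the 36 tandem members (13.9%). The 7 include ILV5, whose summits lay inside its ORF, and ARO8, whose summit lay inside a tRNA gene. By the same rule, the shares over all genes were 22.9% for divergent and 15.6% for tandem genes. The median distance of the upstream member summits from the start codon was 246 bp, against 343 bp over all pairs of a gene and an upstream summit. For 2 of the 14 member summits, at TRP3 and ARO3, another gene started nearer (14.3%), against 36.6% of all 1267 pairs. This count depends on the rule: with 500 bp upstream it was 0 of 11, against 24.7% of all pairs, and when any overlap of the interval counted it was 10 of 23 (43.5%), against 51.1%.

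**Figure D3:**
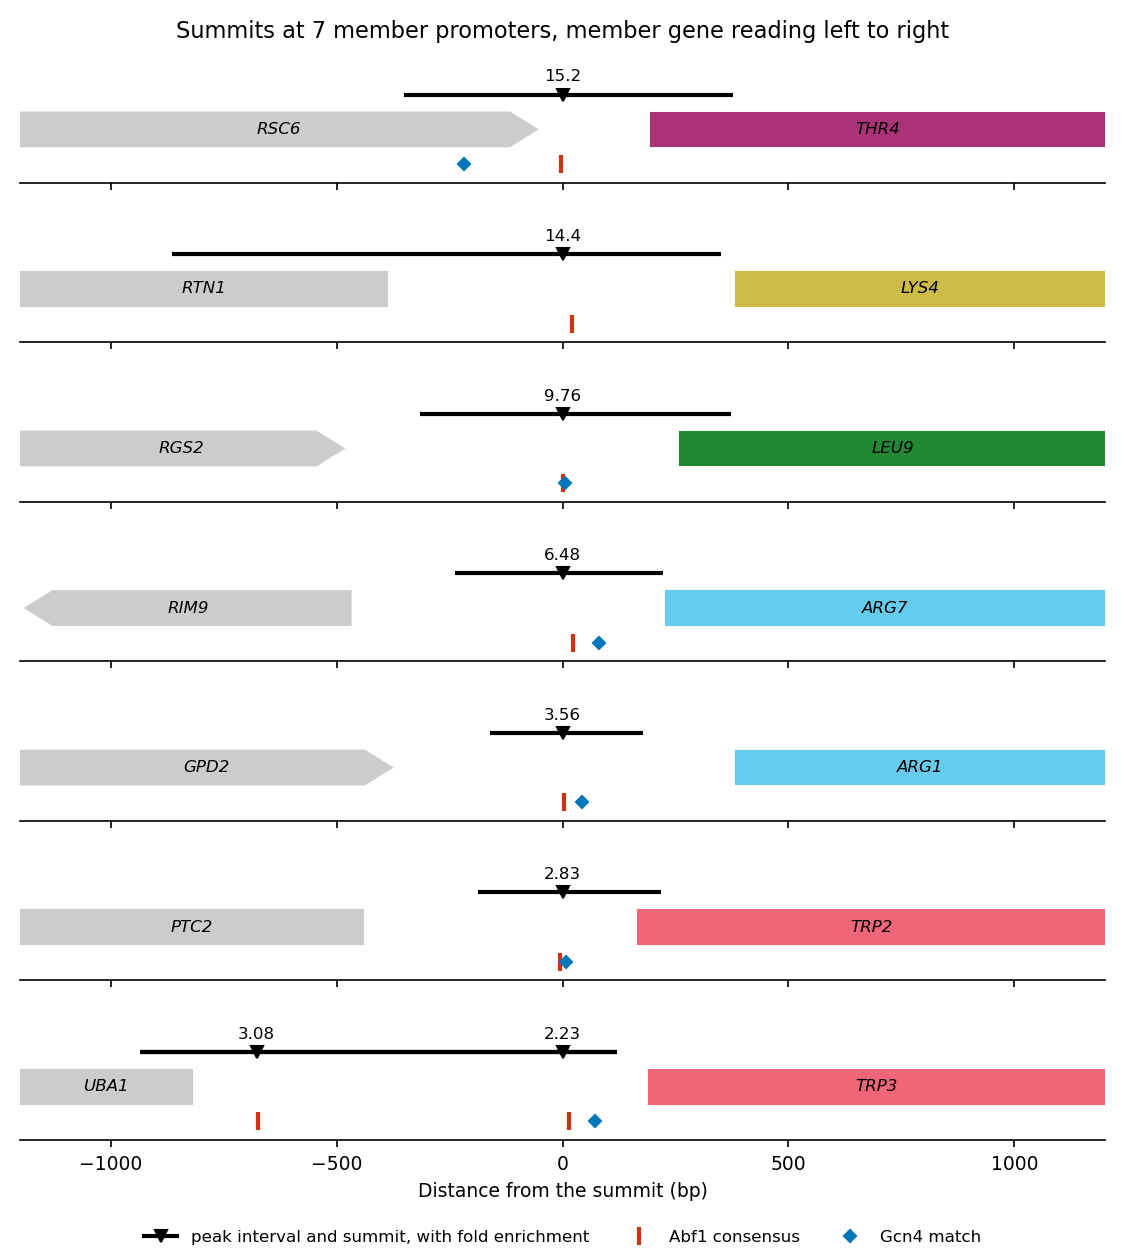
Maps of 7 member promoters, with distance from the summit in bp and the member gene drawn to the right. Black bars are peak intervals, triangles are summits with their fold enrichment, red ticks are exact Abf1 consensus sites and blue diamonds are Gcn4 matches; genes run on past the frame where they meet it, and for TRP3 distances are from the summit nearer to it. The Abf1 and Gcn4 sites of LEU9 and TRP2 lie together at the summit, and LYS4 has no Gcn4 match.

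The Abf1 consensus was then searched within 100 bp of each summit on both strands. An exact consensus was found at 9 of the 14 member summits, against 58.9% of all summits (558 of 948) and 2.81% of windows of the same length tiled over the nuclear genome. With at most 1 mismatch, 11 of 14 member summits had a site, against 76.7% of all summits and 42.2% of the tiled windows. All 4 member summits of fold enrichment 4 or more had the exact consensus, against 88.1% of all such summits. Of the 10 member summits under 4, 5 had it, against 35.5% of all such summits. The 3 member summits without a site even with 1 mismatch were those inside tRNA genes.

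At −8, THR4, LEU9 and ARG7 had G or C and LYS4 had T, whereas the exact sites of the 5 weaker summits (ARG1, ILV5, TRP2 and both of TRP3) had A or T. Over the genome, intergenic consensus sites with G or C at −8 had a summit within 100 bp in 75.8% of cases (197 of 260), and the median fold enrichment of these was 18.2. Sites with A or T had one in 42.8% of cases (331 of 773), with a median of 4.27. The intergenic sites of the members gave 3 of 6 with G or C and 5 of 7 with A or T. LYS4, at 14.4, was thus well above the median of sites with A or T, and the part of its neighbouring sites with 1 mismatch was not tested. Whether signal at the member sites with A or T came from rebinding during the ChIP was not tested either.

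In 5 members an intergenic exact consensus had no summit within 100 bp. These sites are given for comparison with the bound ones, again from −10 to +10 bp with the constrained positions in capitals.

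HIS1, chrV:265986-266006, plus strand: ttcaATCGTtggctACGtgcg
HIS6, chrIX:314968-314988, minus strand: aacgGTCGCatgagACGaatg
LYS21, chrIV:227188-227208, minus strand: tagaATCACacacaACGagaa
ARO3, chrIV:521557-521577, minus strand: atatGTCACtatgtACGcata
ILV3, chrX:467140-467160, minus strand: ttacATCACctttcACGagcg

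HIS1 encodes the first enzyme of histidine synthesis, and its site lay 211 bp upstream of the start codon with C at −8. The nearest summit was 2518 bp from it. The site of HIS6, the isomerase of the same pathway, lay 158 bp upstream, also with C at −8, and was 6882 bp from a summit. LYS21, a homocitrate synthase gene, had its site 195 bp upstream with G at −8, and the nearest summit was 1772 bp away. ARO3 had a site with A at −8 at 249 bp upstream, 559 bp from its tRNA-gene summit. ILV3, the dihydroxyacid dehydratase gene, had a site with A at −8 at 942 bp upstream, 18081 bp from a summit. This site lay beyond the tandem gene ESS1, which begins the upstream side at a gap of 312 bp. An absence from the list says only that no summit passed the q-value of 0.001 and the fold enrichment of 2.

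In all, 22 exact sites lay in the regions of 19 members, and 9 of the 22 had a summit within 100 bp. Over the genome, 34.9% of exact sites had one (623 of 1785). Of the 7 sites inside a member ORF, at HIS4, ARO3, ILV5, LYS12, MET6, THR4 and SER2, only that of ILV5 had one. The share of exact sites inside any ORF was similarly low, at 12.6% (95 of 752). The sites upstream of LYS1 and CPA1 that lay in a neighbouring ORF had no summit.

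The 44 members without a summit were 6 histidine genes (HIS1, HIS3, HIS4, HIS5, HIS6 and HIS7), 9 aromatic genes (ARO1, ARO2, ARO4, ARO7, TRP1, TRP4, TRP5, TYR1 and PHA2) and 9 branched-chain genes (ILV1, ILV2, ILV3, ILV6, LEU1, LEU2, LEU4, BAT1 and BAT2). They also held 6 lysine genes (LYS1, LYS2, LYS9, LYS12, LYS20 and LYS21), 5 arginine genes (ARG2, ARG3, ARG4, ARG8 and CPA1), 5 aspartate family genes (MET6, THR1, HOM2, HOM3 and HOM6) and the 4 serine genes (SER1, SER2, SER3 and SER33). Several of the 44 had a summit just outside the rule. The highest was at HIS3, the imidazoleglycerol-phosphate dehydratase gene, where a summit of fold enrichment 31.6 (30.6 to 32.6, 3970 fragments, rank 50) lay 136 bp past the stop codon and 167 bp upstream of DED1, an RNA helicase gene read in the same direction. Past the stop codons of LYS21, HIS4 and LEU4, summits of 5.30, 4.57 and 3.54 lay at 255, 216 and 219 bp, and the genes starting beside them were STF1, RRP7 and INP52. Farther off, ILV6, the regulatory subunit of acetolactate synthase, had a summit of 6.98 (6.58 to 7.41, 1104 fragments) 1131 bp past its stop codon, 130 bp upstream of GBP2. A second summit past LYS21, of 2.66 at 930 bp, and a second past HIS3, of 3.06 at 824 bp inside DED1, were weaker. Upstream of the rule, MET6, the methionine synthase gene, had a summit of 3.23 at 1205 bp inside the TSC11 ORF. LEU1, the isopropylmalate isomerase gene, had 1 of 2.02 at 1367 bp inside PMA1. ARG7, which already had a summit, had a further one of 19.4 at 1422 bp, which lay 102 bp upstream of AEP1. The member just inside the rule was TRP3, at 868 bp upstream.

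HIS7, the imidazole glycerol phosphate synthase gene, had its nearest summit 34385 bp from the start codon. TRP1, which lies beside the replication origin ARS1, a known Abf1 site, had its nearest summit 9008 bp from the start codon.

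The promoters were also searched for the sites of other regulators in the 500 bp upstream of the start codon, on both strands. The Gcn4 sequence TGACTCA was found at 26 of the 56 members (46.4%), against 4.01% of all genes (241 of 6008). Among the 12 members with an Abf1 summit 7 had it, and among the 44 without, 19. The shorter core TGACTC was found at 38 members (67.9%), against 12.6% of all genes. It was at 7 of the 12 members with a summit and at 31 of the 44 without. Leu3 (CCGGNNCCGG) matched at 5 members, ILV2, ILV5, LEU1, LEU2 and BAT1 (8.93%), all of them branched-chain genes, against 0.266% of all genes. Lys14 (TCCNNNGGA) matched at 8 members (14.3%) against 5.89% of all genes, and 4 of the 8, LYS1, LYS9, LYS12 and LYS21, were lysine genes. The E-box of Cbf1 (CACGTG), a factor of sulfur metabolism and centromeres, matched at 8 members (14.3%) against 6.23%. Reb1 (TTACCCG), another general regulatory factor, matched at TRP5 alone (1.79%), against 10.1% of all genes. These matches describe letters in a window and not binding.

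**Figure D4:**
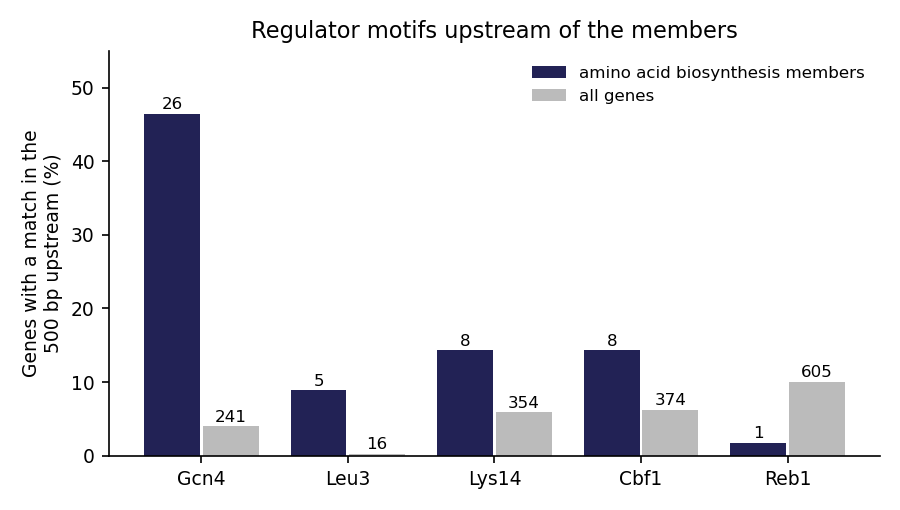
Percent of genes with a match to each motif in the 500 bp upstream of the start codon, for the members (dark bars, left) and all genes (grey bars, right), with the number of genes above each bar. Gcn4 matches stand out, at 26 members (46.4%) against 4.01% of all genes.

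At 6 of the 12 members with a summit, a Gcn4 match and an exact Abf1 consensus lay in the same upstream region. The Gcn4 match was within 100 bp of 5 of the 14 member summits (35.7%), those of TRP2, TRP3, LEU9, ARG1 and ARG7, against 1.58% of all summits (15 of 948), a count that includes the 5. The part that the frequency of Gcn4 matches in member promoters has in this was not tested. The closest were at LEU9 and TRP2, and ARG1 had the next shortest gap. The regions are shown over 101 bases on the plus strand, with both sites in capitals.

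LEU9, chrXV:522717-522817: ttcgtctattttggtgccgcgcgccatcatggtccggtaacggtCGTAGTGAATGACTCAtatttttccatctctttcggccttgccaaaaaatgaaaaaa
TRP2, chrV:337726-337826: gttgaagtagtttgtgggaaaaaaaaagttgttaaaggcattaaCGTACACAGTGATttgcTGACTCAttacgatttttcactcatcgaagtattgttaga
ARG1, chrXV:218780-218880: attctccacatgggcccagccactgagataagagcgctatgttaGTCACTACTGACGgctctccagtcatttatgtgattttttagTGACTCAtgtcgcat

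At LEU9 the 2 sites overlapped by 4 bases, and their midpoints lay 6 bp apart, so the capitals form a single run. At TRP2 the gap was 4 bases, with midpoints 14 bp apart, and at ARG1 it was 29 bases. The gap was 46 bases at TRP3, for the site nearer to that gene, and 47 bases at ARG7. At THR4 it was 203 bases, and the Gcn4 match there, 412 bp upstream of the start codon, lay inside the RSC6 ORF. The shorter core also matched at 176 bp upstream of THR4, whose summit lay at 195 bp. Whether both proteins occupy these sites at once was not measured, since the list holds Abf1 alone.

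Other genes of amino acid metabolism were taken as a second list of 32 enzymes, chosen, like the members, with earlier results of these data known. Of these, 9 had a summit (28.1%), against 21.4% of the 56 members and 19.4% of all genes. A summit of fold enrichment 4 or more was found at 8 (25.0%), against 7.14% of the 56 members and 9.87% of all genes. A divergent gene lay upstream of 59.4% of the 32, against 35.7% of the members. The part that this has in the contrast was not tested. The cytosolic aspartate aminotransferase gene AAT2 had 33.9, and MET1, of sirohaem synthesis, had 30.1. MET13, a methylenetetrahydrofolate reductase gene, had 24.7, from a summit inside the neighbouring SCS3 ORF. The asparagine synthetase genes ASN1 and ASN2 had 17.2 and 5.04, and the glutamine synthetase gene GLN1 had 12.8. MET5, a sulfite reductase subunit, had 5.75, MET8 had 4.65 inside its ORF with the start codon of SDS24 nearer, and MET17 had 3.28 in a tRNA gene.

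Among 17 regulators of these pathways, 6 had a summit (35.3%) and 2 of them reached a fold enrichment of 4. GCN2, the kinase that opens general amino acid control, had 49.1 (7173 fragments), which ranked 14 of all 948 summits, at 343 bp upstream of its start codon. PHO2, the partner of Bas1 at histidine and purine genes, had 4.58. GCN4 itself had a summit of 2.97 at 951 bp upstream, inside the ORF YEL008W. LYS14, ARG80 and BAS1 had 2.61, 2.26 and 2.17, and the ARG80 summit lay in a tRNA gene.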

How the data were processed

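Abf1 ChIP-seq peaks at t = 0 were analysed. Per the methods and labels, the authors used HISAT2 2.0.5 for the alignment of read pairs (build sacCer3), kept uniquely mapping fragments with 1 fragment per combination of molecular identifiers, pooled 3 immunoprecipitations and 3 inputs, and called peaks with MACS2 2.1.1.20160309 (q-value 0.001, minimum fold enrichment 2). bedtools 2.27 is also named. The deposited fold enrichment is the ratio of pileup to background at the summit, each with 1 added. The deposited −log10 p-value comes from a Poisson test, and the deposited −log10 q-value is its genome-wide correction. The deposited score restates the q-value and was not used. Unique mapping lowers signal in repeats, and tRNA genes recur in the genome.

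Here, fragments and background were solved from fold enrichment and p-value. ORFs, tRNA genes and sequences are from RefSeq, assembly R64. Scripts ran in Python 3.11.15 with scipy 1.17.1, pandas 2.3.3, numpy 2.4.6 and matplotlib 3.10.9, and the functions were tested on simulated data. The members and lists were chosen with earlier results of these data known. Members with a fold enrichment of 4 or more were described in full, weaker ones by value and place, and members without a summit were named by pathway. Other genes were to be named at a fold enrichment of 4 or more, and the weaker ones named were added after their values were seen. Alternatives covered the upstream limit, overlap, thresholds, tRNA genes, consensus and deleted genes. The other 70 samples were not used here.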

Additional observations from a re-analysis of the deposited data

How the results depend on the processing

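Of 60 combinations of a result and an alternative, 47 stayed within 1.5 times the count or, for the median, within 2.73 to 3.30, and 13 moved. The count of members with a summit was 6 at a −log10 q-value of at least 100, against 723 of all genes (10.7% and 12.0%). The median fold enrichment of the member summits was 3.37 with 500 bp upstream, 3.37 without summits in tRNA genes, 5.02 with a minimum fold enrichment of 3 and 8.12 at that q-value, the last 2 by construction. Members with a fold enrichment of 4 or more were 7 when any overlap of the interval counted. The count over all genes at that fold enrichment was not made under this rule. For any summit it gave 15 of 56 members (26.8%), against 24.2% of all genes. Member summits with a nearer start codon of another gene were 0 of 11 with 500 bp upstream, against 24.7% of all pairs. At a −log10 q-value of at least 100 they were 0 of 6, against 37.1%. They were 1 of 13 with the intergenic part only (29.9% of all pairs), 1 of 8 with a minimum of 3 (37.2%) and 1 of 11 without tRNA genes (37.4%). With any overlap they were 10 of 23, against 51.1% of all pairs. Without HIS3, LEU2 and LYS2, 12 of 53 members had a summit (22.6%), against 19.4% of all genes. No paired analysis was possible because peak calling ran on all replicates merged, which also hides their spread, and summits under the deposited thresholds are unseen.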
